A study of Mus musculus with 20 samples.

Results

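The genes described here are 8 mouse genes that melanocytes use to make pigment, Dct, Tyrp1, Tyr, Pmel, Mlana, Mitf, Slc45a2 and Oca2, out of 55471 genes in the deposited count table. They were taken as a named list, matched by Ensembl identifier and mouse symbol, and the list was drawn up with the difference between DNFB-treated and acetone-treated epidermis in view. Levels in those 2 groups are therefore given as a description without a test. In the epidermis, 7 of the 8 genes had a higher fitted level after DNFB than after acetone, with a median log2 fold change of 1.20 over the 8. The acetone-treated libraries themselves differed widely, with 1 library, acetone 11, at the level of the DNFB group, and the size of the difference followed which of them were counted.

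RNA was sequenced from 20 samples of wild-type (WT) mice, with 5 libraries in each of 4 groups, to compare inflamed with control tissue in the skin and the pancreas. The skin mice, 4 to 6 weeks old and of either sex, received DNFB, a hapten that causes contact dermatitis, or the carrier acetone with olive oil alone, on the back 3 times a week for 22 days. Sensitization on the abdomen started at 0.5% DNFB, and the back was challenged with 0.25%. The pancreas mice received caerulein, a cholecystokinin analogue that overstimulates acinar cells, at 50 µg per kg in PBS, or PBS alone, in 6 hourly injections a day on 3 days a week for 3 weeks. The WT strain named in the study's methods is C57BL/6, a strain with a black coat, and no group carried an engineered allele. The skin sample is called epidermis in the methods and isolated epidermal keratinocytes in the study's results. Libraries carry the numbers of their labels below, acetone 1, 2, 3, 11 and 12, DNFB 4, 5, 6, 13 and 14, PBS 7, 8, 15, 16 and 17, and caerulein 9, 10, 18, 19 and 20. The labels do not say that the libraries of a group came from separate mice, so the p-values measure the spread between these samples, which may be technical.

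Melanin is made inside melanosomes, organelles of the melanocyte, by tyrosinase and the related enzymes encoded by Tyrp1 and Dct, on fibrils formed by the Pmel protein. The transcription factor MITF drives these genes through short E-box-like elements, of which the M-box is the best known. In the trunk skin of the mouse most pigment cells sit in the hair follicles, where they hand melanin to the growing hair shaft, and few lie in the epidermis between follicles. In whole-tissue RNA, fewer cells of a type and less RNA per cell cannot be told apart.

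The stretches of promoter that carry the MITF element are shown because 3 enzyme genes of the list share it. RefSeq (GRCm38.p6) promoters, from 250 bases before to 50 after the start of transcription, were at hand for 5 of the 8 genes (Dct, Tyrp1, Tyr, Mitf and Oca2) and were searched on both strands for TCATGTG, the core of the M-box, and for CACGTG, the E-box that shares its last letters. The sequences run 5′ to 3′ on the strand of the gene, with the core or its reverse complement in capitals. They lie at chr14:118052379-118052408 for Dct (minus strand), chr4:80834155-80834184 for Tyrp1 (plus strand), chr7:87493516-87493545 for Tyr (minus strand) and chr2:125068103-125068132 for Slc24a5 (plus strand), a melanosome exchanger outside the list that is described further on.
Dct: tgcacttagggTCATGTGctaacaaagagg
Tyrp1: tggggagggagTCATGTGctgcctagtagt
Tyr: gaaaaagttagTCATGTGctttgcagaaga
Slc24a5: aggagactgctCACATGAttcagcataagt

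The first base of the core lay 151 bases before the start in Dct, 47 in Tyrp1, 22 in Tyr and 13 in Slc24a5. Dct held a second copy on the opposite strand, 232 bases before its start. The core was present in 3.77% of 32851 promoters in the table, and in 1.90% when only the strand of the gene was read. In Dct, Tyrp1 and Tyr it sat within the same 10 bases, GTCATGTGCT, a stretch that 61 promoters (0.186%) held on either strand and that was picked out after the sequences had been seen. No core was found in the windows of Mitf and Oca2, and none of the 5 genes held CACGTG, which was present in 7.15% of promoters. Slc24a5 was not the only further gene with a core. Of 42 genes with a promoter in the 2 wider pathway lists below, 5 held the core and 13 held CACGTG. Among all 27025 genes with a promoter, 1165 held the core and 2187 held CACGTG. Such a match is a description of letters, and these data hold no measurement of MITF binding. The 250 bases before the start of Tyr, the gene of the rate-limiting enzyme, at chr7:87493513-87493762 (minus strand), are given in full for the context of its single core.
Tyr promoter: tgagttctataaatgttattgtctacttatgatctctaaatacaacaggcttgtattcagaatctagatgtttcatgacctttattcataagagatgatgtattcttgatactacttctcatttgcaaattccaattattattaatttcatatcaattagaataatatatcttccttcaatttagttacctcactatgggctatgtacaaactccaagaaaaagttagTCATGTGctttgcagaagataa

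Depth has to be known before the levels are read. Each library held between 791491 and 2232039 counts, but 3 satellite-like predicted genes (Gm10800, Gm10801 and Gm21738) took 37.4% to 92.4% of the counts in acetone-treated epidermis and 57.5% to 82.5% after DNFB. Outside them, acetone libraries held 106497 to 1082423 counts (median 161203) and DNFB libraries 159355 to 698588 (median 361572). Acetone 1, 2 and 3 were the shallow acetone libraries and acetone 11 and 12 the deep ones. Levels below are normalized CPM, counts scaled to a common library size with TMM factors, which are a trimmed mean of the ratios between libraries. On that scale 3 counts, the limit that a count of 0 allows, stood for 9.67 CPM in acetone 1, 8.52 in acetone 2 and 5.34 in acetone 3, but only 0.585 in acetone 11. These limits cover counting error only. Fold changes are those of an edgeR fit over the 7265 genes that passed a filter on low counts (minimum count 10) in the 10 epidermis libraries.

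Dct, which encodes the dopachrome tautomerase of the melanin pathway (ENSMUSG00000022129, chr14:118012790-118052244), was counted in every epidermis library. Its level was 25.8, 8.52, 24.9, 73.6 and 32.0 CPM in acetone 1, 2, 3, 11 and 12, from 8, 3, 14, 377 and 119 counts. In DNFB 4, 5, 6, 13 and 14 it was 93.5, 34.0, 112.8, 67.0 and 73.6 CPM, from 157, 20, 302, 171 and 66 counts. Acetone 11 stood among the DNFB libraries, while the other 4 acetone libraries lay below every DNFB library. The group means were 32.9 ± 24.3 and 76.2 ± 29.7 CPM (SD, n = 5 each), a fitted log2 fold change of 1.16 (SE 0.59).

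Tyrp1 encodes a melanosomal enzyme that also stabilizes tyrosinase (ENSMUSG00000005994, chr4:80834123-80851719). It had 0, 0, 7, 284 and 101 counts in acetone 1, 2, 3, 11 and 12, or 0, 0, 12.5, 55.4 and 27.1 CPM. With DNFB the counts were 99, 16, 223, 114 and 34 in DNFB 4, 5, 6, 13 and 14, or 58.9, 27.2, 83.3, 44.7 and 37.9 CPM. All 5 DNFB libraries lay above the level that a count of 0 allowed in acetone 1 and 2, and acetone 12 came within 0.047 CPM of the lowest of them. The fitted log2 fold change was 1.24 (SE 0.75).

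Tyr encodes tyrosinase itself (ENSMUSG00000004651, chr7:87424771-87493512). Its levels were 0, 8.52, 8.90, 23.6 and 8.59 CPM in acetone 1, 2, 3, 11 and 12 and 16.7, 20.4, 36.6, 16.5 and 16.7 CPM in DNFB 4, 5, 6, 13 and 14. Acetone 11 was the only acetone library within the DNFB range, and the other 4 held between 0 and 32 counts. The fitted log2 fold change was 0.92 (SE 0.55). The 3 enzymes thus had the same arrangement of libraries, with acetone 11 at the level of the DNFB group.

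Pmel forms the fibrils on which melanin is laid down (ENSMUSG00000025359, chr10:128704195-128720238), and it was the gene of the list with the widest spread. It was at 0, 0, 14.2, 119.04 and 45.9 CPM in acetone 1, 2, 3, 11 and 12, from 0, 0, 8, 610 and 171 counts. The values in DNFB 4, 5, 6, 13 and 14 were 120.3, 34.0, 174.5, 77.6 and 54.7 CPM, from 202, 20, 467, 198 and 49 counts. Acetone 11 and 12 overlapped with the DNFB libraries, and the fitted log2 fold change was 1.27 with a standard error of 0.91.

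Mlana encodes a small melanosomal membrane protein needed for Pmel to mature (ENSMUSG00000024806, chr19:29697824-29708634). Its levels were 0, 0, 3.56, 13.5 and 4.83 CPM in the acetone libraries, in the same order, and 22.03, 6.79, 35.9, 14.1 and 25.7 CPM in the DNFB libraries. In 4 of 5 DNFB libraries it was above every acetone library, and DNFB 5, with 4 counts, was the exception. Mlana had the highest fitted log2 fold change of the list, 1.82 (SE 0.64), with means of 4.37 ± 5.52 and 20.9 ± 11.1 CPM (SD, n = 5 each).

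Oca2 encodes a melanosome channel whose loss causes albinism (ENSMUSG00000030450, chr7:56239760-56536518). It had 0, 0, 3.56, 8.20 and 4.03 CPM in acetone 1, 2, 3, 11 and 12 and 14.9, 8.49, 15.3, 8.23 and 11.2 CPM in DNFB 4, 5, 6, 13 and 14. It was the 1 gene of the list without overlap between the groups, by a margin of 0.030 CPM between acetone 11 and DNFB 13. The counts of 0 in acetone 1 and 2 allowed up to 9.67 and 8.52 CPM, above the levels of DNFB 5 and 13. The lack of overlap is therefore one of the printed values and was not resolved at this depth. Of all 7265 genes tested, 0.564% had every DNFB library above every acetone library. The list was chosen on this comparison, so nothing is read from that count. The fitted log2 fold change of Oca2 was 1.41 (SE 0.57).

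Slc45a2, a melanosomal transporter (ENSMUSG00000022243, chr15:11000721-11029233), differed least among the pigment genes that passed the filter. Its level was 6.44, 0, 3.56, 8.98 and 5.37 CPM in the acetone libraries and 5.95, 1.70, 14.9, 6.66 and 8.92 CPM in the DNFB libraries. The groups overlapped over most of their range, and the fitted log2 fold change was 0.51 (SE 0.57).

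Mitf, the regulator of the other genes (ENSMUSG00000035158, chr6:97807052-98021349), behaved differently. It had 3, 3, 5, 15 and 12 counts in acetone 1, 2, 3, 11 and 12 and 0, 6, 4, 13 and 5 counts in DNFB 4, 5, 6, 13 and 14. Its levels were 9.67, 8.52, 8.90, 2.93 and 3.22 CPM with acetone and 0, 10.2, 1.49, 5.09 and 5.58 CPM with DNFB. The groups overlapped, and DNFB 4, with 558 counts on the 8 genes together, had none on Mitf. Mitf did not pass the filter on low counts, and its fitted log2 fold change of -0.50 has no standard error. Its sign turned to 0.13 without acetone 1, 2 and 3.

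**Figure D1:**
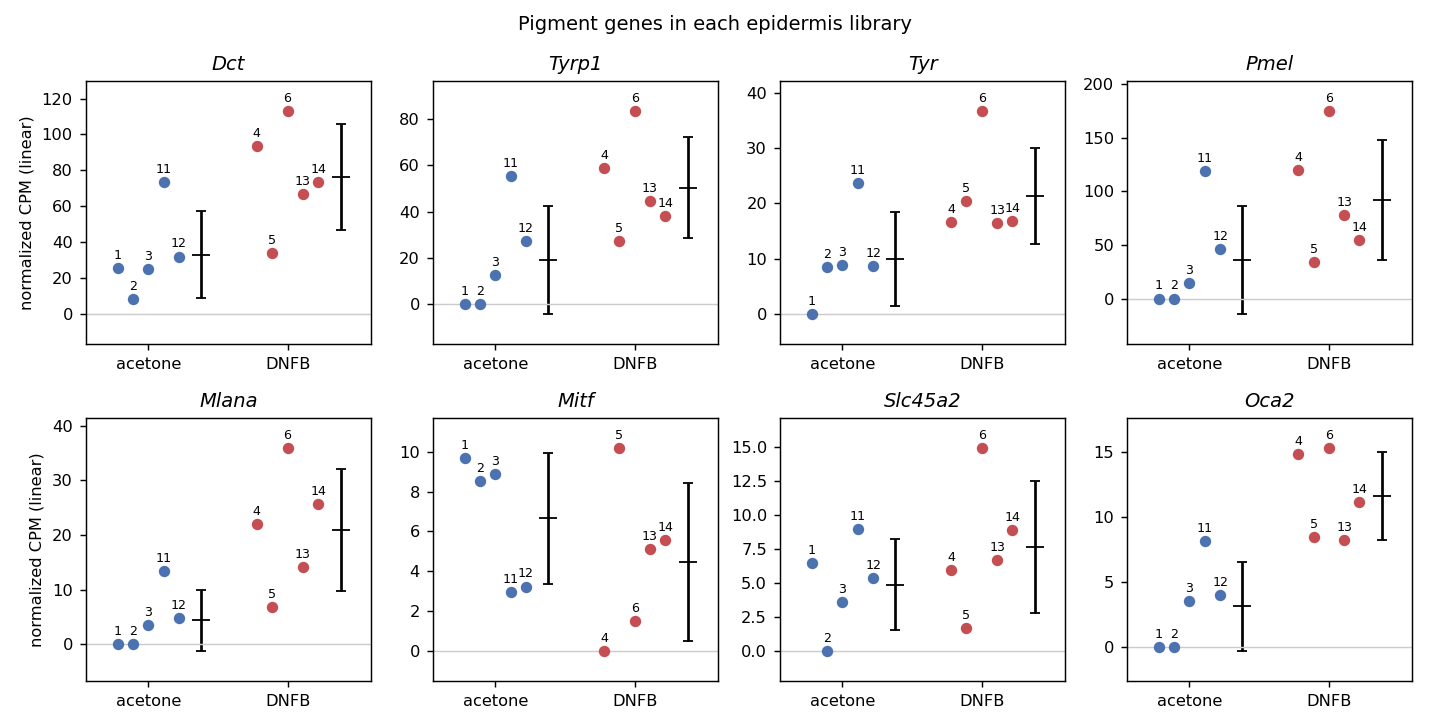
Normalized CPM (linear axis) of the 8 pigment genes in the acetone-treated and DNFB-treated epidermis libraries, 1 panel a gene, with the label number above each point and the mean ± SD (n = 5) as a bar beside each group. In 6 panels acetone 1, 2 and 3 lie below the DNFB libraries and acetone 11 lies at or near them, while Slc45a2 and Mitf overlap throughout.

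Summed over the 8 genes, the level was 41.9, 25.6, 80.1, 305 and 131 CPM in acetone 1, 2, 3, 11 and 12 and 332, 143, 475, 239.7 and 234 CPM in DNFB 4, 5, 6, 13 and 14. The means were 117 ± 113 and 285 ± 126 CPM (SD, n = 5 each), and the spread within the acetone group was as wide as its mean. Acetone 11 alone exceeded 3 of the 5 DNFB libraries. Acetone 11 and 12 together carried 96.8% of the 2119 counts that the acetone group had on the list, while the DNFB group had 2735. Acetone 3 and DNFB 5, the closest libraries of the 2 groups in scaled size (561882 and 588806), had 45 and 84 counts on the list. Within the acetone group the deep libraries were the high ones, and the part of depth in these levels was not tested.

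The acetone libraries to be compared with DNFB therefore set the size of the difference. Without acetone 11 and 12 the median log2 fold change of the 8 genes was 2.48, with Pmel at 4.13 and Mlana at 3.79. Without acetone 1, 2 and 3 it was 0.22, with Pmel at 0.06 and Mlana at 1.07. The label numbers run in 2 series in which each tissue and treatment recurs. Acetone 1, 2 and 3 belong to the first and acetone 11 and 12 to the second. A comparison within each series thus divides the acetone group in the same way and is no second observation. Level and series cannot be told apart among the acetone libraries. Among libraries numbered 1 to 10 the median difference of mean log2 CPM was 2.91, and among those numbered 11 to 20 it was 0.36. What the 2 number series stand for is not given in the labels. In the second series the log2 difference was -0.18 for Pmel, 1.15 for Mlana and 0.66 for Oca2.

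**Figure D2:**
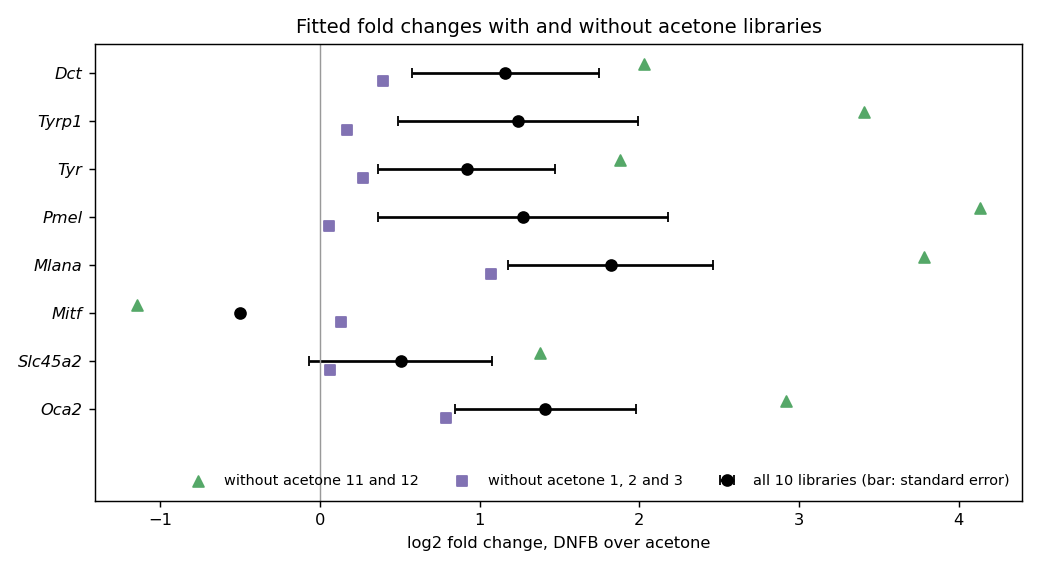
Fitted log2 fold change of DNFB over acetone for each gene with all 10 epidermis libraries (circles, bars are standard errors, none for Mitf), without acetone 11 and 12 (triangles) and without acetone 1, 2 and 3 (squares). Pmel moves from 4.13 to 0.06 between the triangle and the square, and Mlana and Oca2 stay above 0.5 in all fits.

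Over all 7265 genes tested in the epidermis the median log2 fold change was 0.02 and 51.7% were above 0. All 7 pigment genes that passed the filter were above 0, with a median of 1.24, but a list chosen on these libraries gives no support to its own direction. Scaling moved the values: with library totals in place of TMM factors the median of the 8 genes was 0.52, while the median of all genes tested was -0.02.

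Although the levels differed widely, the proportions among the pigment genes were alike in libraries that held enough counts. In the 6 epidermis libraries with at least 100 counts on the list (acetone 11 and 12, DNFB 4, 6, 13 and 14), Pmel took 23.3% to 39.0% of them, Dct 23.8% to 31.4%, Tyrp1 16.2% to 20.7% and Tyr 5.02% to 7.74%. Mlana ranged more widely, from 3.69% to 10.95%, with both acetone libraries (4.41% and 3.69%) below the 4 DNFB libraries (5.88% to 10.95%). Oca2 was likewise at 2.69% and 3.07% in the acetone libraries and 3.23% to 4.76% in the DNFB libraries. The nearest of these, acetone 12 and DNFB 6, rested on 15 of 488 and 41 of 1271 counts. For the other genes of the list the shares of the acetone and DNFB libraries overlapped. Mlana and Oca2 were thus picked out of 8 genes, and nothing is read from their separation. With 2 libraries against 4 no exact test can pass the threshold at 2 sides, and the libraries were chosen by depth, so these shares are a description. Acetone 1 and 2 had only 13 and 9 counts on the list, spread over Dct, Mitf, Tyr and Slc45a2.

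**Figure D3:**
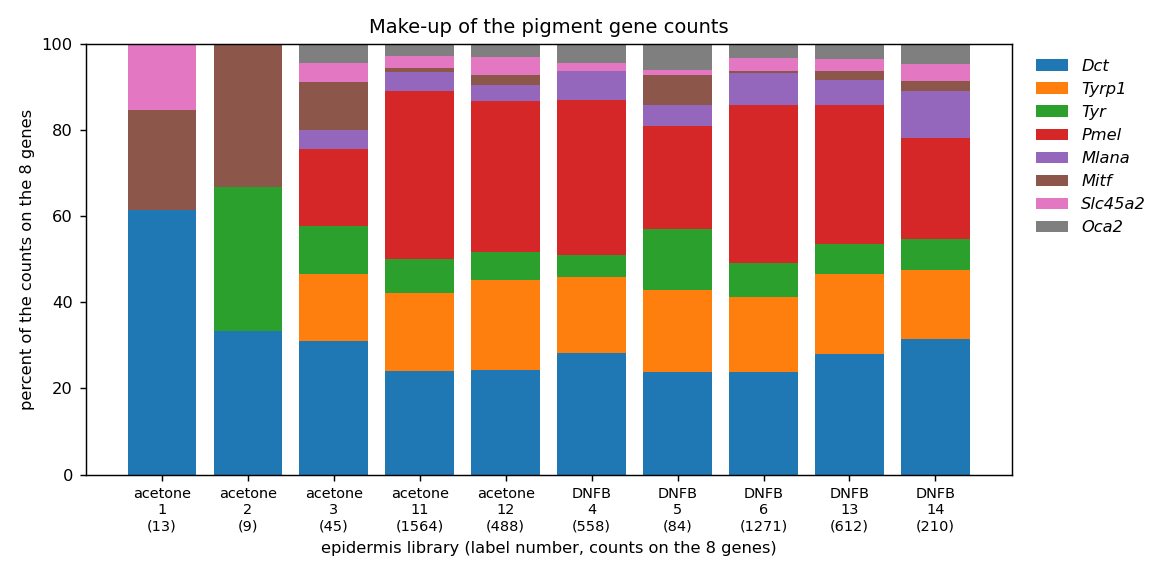
Percent of the counts on the 8 genes that each gene took in each epidermis library (stacked bars, with the number of counts in parentheses on the axis). The 6 libraries with 210 or more counts have a similar make-up, with Pmel, Dct and Tyrp1 as the main parts, and acetone 1 and 2 rest on 13 and 9 counts.

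Levels can be set against each other only per length. In CPM per kilobase of annotated exon, the DNFB means were 40.2 ± 24.5 for Pmel, 19.8 ± 10.5 for Mlana, 17.8 ± 7.68 for Tyrp1 and 12.9 ± 5.03 for Dct (SD, n = 5 each). The next genes, Tyr at 3.01 ± 1.22, Oca2 at 2.93 ± 0.85 and Slc45a2 at 2.56 ± 1.63, did not differ beyond their spread, and Mitf was lowest at 0.72 ± 0.64. For neighbours among Pmel, Mlana, Tyrp1 and Dct the ranges of mean ± SD overlapped. These SDs are between libraries, while all genes were measured in the same libraries, so they do not judge the order within a library. Pmel was the highest in 4 of 5 DNFB libraries, and Mlana was the highest in DNFB 14. Dct was the fourth in all 5.

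Both control tissues gave a comparison that uses no DNFB library. None of the 8 genes passed the filter in the fit of acetone-treated epidermis against PBS-treated pancreas (736 genes tested), so each was compared by a two-sided exact permutation test on the log2 scale with 1 count of the median library added. Dct, with 521 counts in the acetone group and 10 in the PBS group, was higher in the epidermis (18.9 ± 16.6 and 2.86 ± 2.03 CPM on the scaling of these 10 libraries, exact p = 0.0317, higher than every PBS library in 4 of 5 acetone libraries). Slc45a2 was higher as well, with 70 counts and 1 count (2.83 ± 2.15 and 0.33 ± 0.74 CPM, exact p = 0.0476, above every PBS library in 4 of 5). Tyrp1 had 392 counts in the acetone group and 0 in the PBS group, which makes its mean at least 2.46-fold higher than the floor of 3 counts per PBS library, and Pmel had 789 and 3.

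For Tyrp1, Pmel and Mlana 3 acetone libraries exceeded every PBS library, but acetone 1 and 2 were at 0, and the exact permutation p was 0.167 for each. Mitf (38 and 6 counts, exact p = 0.135), Oca2 (59 and 2, exact p = 0.405) and Tyr (161 and 10, exact p = 0.548) did not pass either. Among the 40039 genes with a count in these libraries, 7.32% were higher in acetone-treated epidermis by the same exact test and 2.33% were lower, against 2 and 0 of the 8 pigment genes. These 2 results are unadjusted. They rested on single libraries: without acetone 11 none of the 8 passed (exact p = 0.0556 for Dct), and of the 10 fits that left out 1 library Dct passed in 7 and Slc45a2 in 2. Without a filter, edgeR gave adjusted p = 0.0253 for Dct, 3.4e-05 for Tyrp1 and 0.000247 for Pmel over all genes. DESeq2 gave adjusted p = 0.0179 for Dct, 0.188 for Tyrp1 and 0.103 for Pmel, so the last 2 calls were lost with it.

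In the pancreas itself the 8 genes were near the floor. PBS-treated libraries held 33 counts on the list in all and caerulein-treated libraries 69. Dct had 10 and 22 counts, Tyr 10 and 18, Mitf 6 and 14, Pmel 3 and 6, Oca2 2 and 3, Slc45a2 1 and 5, Mlana 1 and 0, and Tyrp1 0 and 1. No gene of the list passed the filter or the two-sided exact permutation test between caerulein and PBS (exact p from 0.254 to 1), where 4.69% of 38895 genes were higher and 2.35% lower with caerulein. Without a filter edgeR called none of the 8, with adjusted p from 0.403 to 0.928, DESeq2 gave them no adjusted p, and a difference was not detectable at this depth. Mitf alone passed when PBS 7, its library at 0, was left out (exact p = 0.0159). Caerulein libraries also held more usable counts, 104801 to 614708 against 86345 to 217668 with PBS, and the part of depth in these values was not tested.

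**Figure D4:**
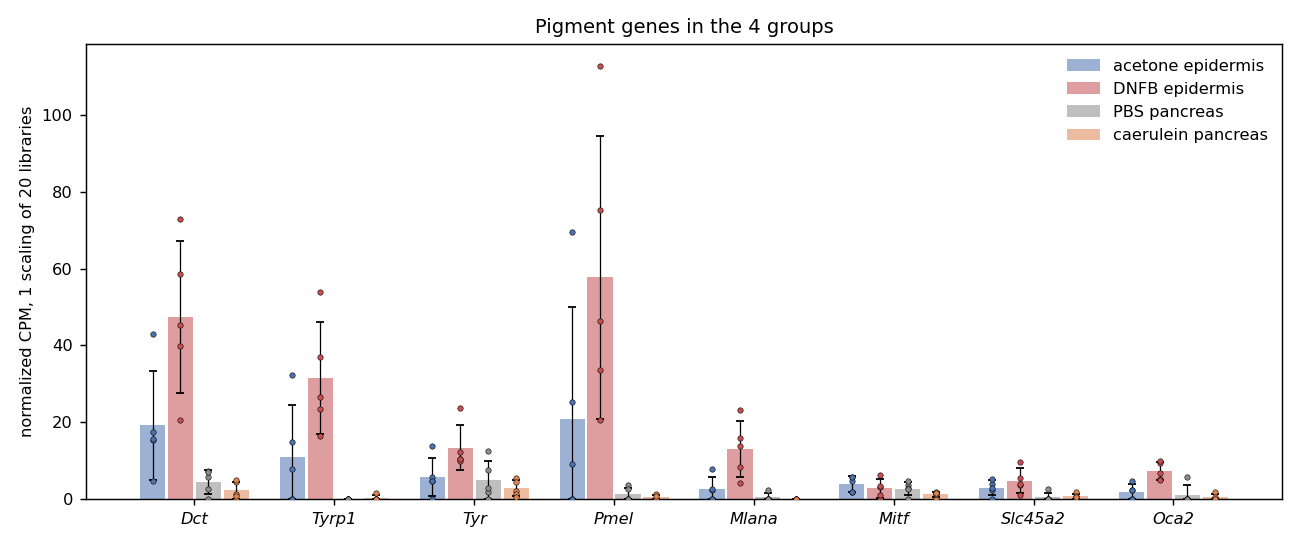
Mean normalized CPM of each pigment gene in the 4 groups on 1 scaling of all 20 libraries (bars, linear axis from 0, with SD cut at 0 and a point for each library). Dct averages 19.2, 47.5, 4.44 and 2.27 CPM in acetone epidermis, DNFB epidermis, PBS pancreas and caerulein pancreas, and Tyrp1, Pmel and Mlana are near 0 in both pancreas groups.

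The wider pathway was read from 2 lists. Of 29 further genes of melanin synthesis and melanosome transport, 16 passed the filter, and none was past an adjusted p of 0.05 in either direction by edgeR, where 0.0275% of all genes tested were higher and 0.0138% lower with DNFB. DESeq2 called none either, and 1 gene, Ptgds, was at an unadjusted p under 0.05. The median log2 fold change of the 16 was 0.22, with 10 of 16 above 0, near the 51.7% of all genes. The 4 with the highest level were Gpnmb, a glycoprotein related to Pmel (30.6 ± 29.03 CPM with acetone, 69.2 ± 55.9 with DNFB, SD, n = 5 each), the tetraspanin Cd63, Trpm1 and the prostaglandin D synthase Ptgds. Their log2 fold changes were 1.11 (SE 0.83), 0.64 (SE 0.56), 0.80 (SE 0.47) and 1.93 (SE 0.70), with adjusted p from 0.651 to 0.965 by edgeR. Without acetone 1, 2 and 3 the cystine transporter Slc7a11, named after its value was seen, was called at a log2 fold change of 3.41 (SE 0.67, adjusted p = 0.0113 by edgeR), in a fit that called 5.94% of 12731 genes higher with DNFB. With all libraries its value was 1.49 (SE 0.74, adjusted p = 0.884 by edgeR).

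Myo5a, the motor of melanosome transport, was at 17.6 ± 7.91 CPM with acetone and 18.4 ± 2.72 CPM with DNFB (SD, n = 5 each), and its partners Rab27a and Mlph were below the filter. All 3 were named after their values were seen. Of 20 genes of melanocyte regulation and signalling, 19 were in the table, 9 passed the filter and none was past the threshold by edgeR or DESeq2, with 0 at an unadjusted p under 0.05 and a median log2 fold change of 0.09. The 4 with the highest level, Ctnnb1, Zeb2, Lef1 and Bcl2, had log2 fold changes of 0.09, -0.11, 0.63 and -1.32, and they are used by many cell types. Asip, the agouti signal, was not analysed here.

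The melanocyte label was checked with 9 markers outside the list, of which 4 passed the filter. Their summed level was 93.4, 28.4, 87.2, 75.7 and 51.6 CPM in acetone 1, 2, 3, 11 and 12 and 97.6, 90.01, 105, 71.7 and 90.4 CPM in DNFB 4, 5, 6, 13 and 14. The groups overlapped, and acetone 1 was the highest acetone library, unlike in the pigment genes. Trpm1 alone supplied 38.7 CPM of the sum in acetone 1, from 12 counts, and 47.6 CPM in DNFB 5, from 28 counts. In the shallow libraries these sums thus rest on few counts and largely on 1 gene. Sox10, a defining factor of the lineage, had 0 to 4 counts in every epidermis library, while Slc24a5, Kit, Ednrb and Trpm1 passed the filter, with log2 fold changes of 1.11, 0.76, -0.01 and 0.80. Below the filter Pax3, Mc1r, Mlph, Gpr143 and Sox10 had fitted values of -0.54, -0.77, -1.46, -0.50 and 0.47. Without acetone 1, 2 and 3 these were 1.54, 0.54, -1.09, -0.96 and 1.48, so the signs of Pax3 and Mc1r turned. Slc24a5 was at 0, 0, 1.78, 11.7 and 6.98 CPM in acetone 1, 2, 3, 11 and 12 and 14.9, 3.40, 23.2, 8.62 and 10.04 CPM in DNFB 4, 5, 6, 13 and 14, with 0 counts in both pancreas groups. Acetone 11 and 12 lay inside the DNFB range, and acetone 3, with 1 count, below it. The counts of 0 in acetone 1 and 2 allowed up to 9.67 and 8.52 CPM, so their place against that range is not known. Kit, the receptor that melanocytes need to survive, had 6.45 ± 3.45 and 11.7 ± 3.14 CPM (SD, n = 5 each), a log2 fold change of 0.76 (SE 0.48, adjusted p = 0.938 by edgeR). Trpm1 also had 19 counts in PBS and 26 in caerulein libraries, so its counts were not limited to skin.

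The genes most like the list over the 10 epidermis libraries were ranked by Pearson's r between the log2 level of each gene and that of the summed 8. Slc24a5 came first (r = 0.98), followed by Rrm2, Ube2c, Bambi, Gcsh, Ptgds, Shmt2, Msx1, Krtap8-1 and Pbk (r = 0.93 for the tenth). Rrm2, Ube2c and Pbk are genes of dividing cells, Msx1 is a homeobox gene and Krtap8-1 a hair keratin-associated protein. The members themselves had r of 0.95 to 0.97 with the sum that includes them, except Slc45a2 (0.76), Tyr (0.72) and Mitf (-0.69). All points share the library, its depth and its scaling, so these values describe 10 libraries and carry no p.

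Markers of the hair shaft and inner root sheath varied widely between libraries, as the pigment genes did. Of 18 listed, 17 were in the table and 12 passed the filter. All 12 had log2 fold changes above 0 (median 1.19), 5 of them (Krt25, Krt28, Krt71, Krt73 and Msx2) turned below 0 without acetone 1, 2 and 3, and none was past the threshold by edgeR or DESeq2, with Krt83 alone at an unadjusted p under 0.05. The summed level of the 17 was 54.8, 28.4, 198, 1818 and 637 CPM in acetone 1, 2, 3, 11 and 12 and 1446, 134, 2075, 2508 and 193 CPM in DNFB 4, 5, 6, 13 and 14. Among the acetone libraries the order was the same as for the pigment genes. Krt71, an inner root sheath keratin, had a log2 fold change of 4.88 without acetone 11 and 12 and -0.44 without acetone 1, 2 and 3. In the ranking by r, 6 of the 12 tested were within the first 100 genes, which are 1.38% of all genes ranked, and the median r was 0.87 for the 12 and 0.14 for all genes.

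The 2 sums did not run in parallel throughout. DNFB 14 had nearly the same hair follicle level as acetone 3 (193 and 198 CPM) and a pigment sum of 234 against 80.1 CPM. DNFB 5 was lower in hair follicle markers (134 CPM) and had a pigment sum of 143. At the upper end acetone 11 and DNFB 13 had 1818 and 2508 CPM of hair follicle markers and 305 and 239.7 CPM of pigment genes. The part of hair follicle content in the pigment gene levels was not tested.

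**Figure D5:**
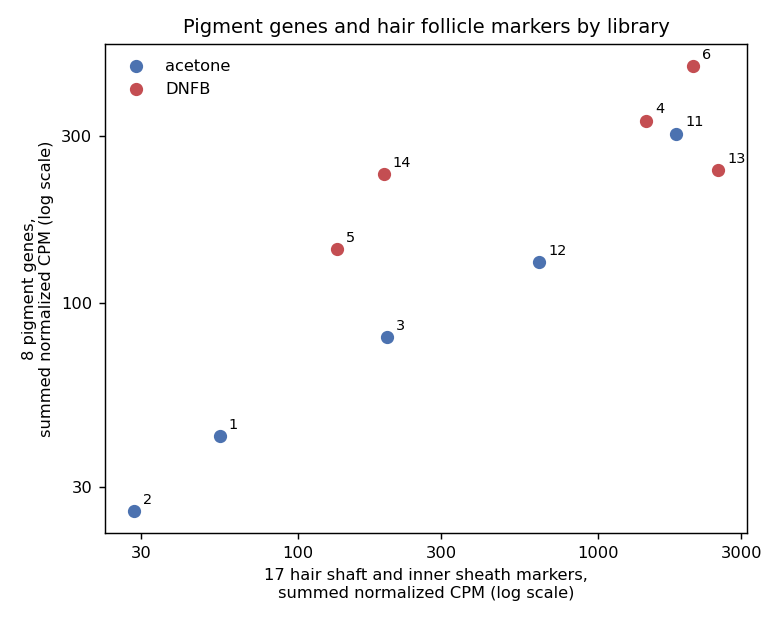
Summed normalized CPM of the 8 pigment genes against that of 17 hair shaft and inner sheath markers in each epidermis library (both axes logarithmic, label numbers beside the points). Acetone 11 lies with DNFB 4, 6 and 13 at the upper right, and DNFB 14 and 5 lie above acetone 3 at a similar hair follicle level.

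Other cell types in the epidermis samples were read in the same way. Outer sheath and bulge markers ranged from 64.4 to 832 CPM with acetone and 133 to 1344 with DNFB. Interfollicular keratinocyte markers ranged from 256 to 3661 and from 197 to 2183 CPM, and Krt77 of that list was past the threshold with a log2 fold change of -7.34 (SE 1.11, adjusted p = 0.0313 by edgeR). That call was kept in 13 of 18 other fits and lost with library totals (adjusted p = 0.175 by edgeR) and without acetone 2 (0.155), acetone 12 (0.0509), DNFB 5 (0.0913) or DNFB 13 (0.100). Fibroblast markers were at 139 to 639 CPM with acetone and 110 to 187 with DNFB, and leukocyte markers at 46.3 to 849 and 50.01 to 182 CPM. Over 5 Schwann cell markers the summed level was 16.02 to 48.3 CPM with acetone and 5.10 to 11.96 CPM with DNFB, without overlap. Pmp22, the 1 of them that passed the filter, had a log2 fold change of -2.47 (SE 0.68, adjusted p = 0.320 by edgeR). Endothelial and adipocyte markers reached at most 31.2 CPM in any epidermis library. Acinar markers, which belong to the pancreas, were at 46.8 CPM in DNFB 14 and at most 19.3 CPM in the other epidermis libraries. The source of the acinar counts in DNFB 14 was not tested. The part of these cell types in the pigment gene levels was not tested.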

How the data were processed

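RNA-seq libraries of mouse epidermis and pancreas, 5 per group, were analysed. The authors mapped reads to mm10 with STAR 2.5.3 and deposited expected counts per gene from RSEM 1.3.1, which are estimates without normalization (94.7% of values were whole); they were rounded here before testing. Gene positions and exon lengths came from GENCODE M21 (GRCm38) and promoters from RefSeq. The members and gene lists were chosen with earlier results of these data known. Each comparison was fitted in R 4.3.3 with edgeR 4.0.16 (filterByExpr, minimum count 10, TMM, quasi-likelihood test without covariates, Benjamini-Hochberg threshold 0.05), and DESeq2 1.42.0 was an alternative. Fold changes of genes under the filter were fitted with the common dispersion. The SE given with an edgeR fold change is its absolute log2 value divided by the square root of the quasi-likelihood F statistic. It is an approximation and not a standard error reported by the fit. Named genes were the 8 members, list genes past the threshold or else the 4 of highest mean level, and the 10 genes most correlated with the summed members; exceptions are marked. On simulated data for the epidermis (7265 genes, 200 changed 8-fold, 1 spread for all genes) edgeR recovered 87.5% with 7 false calls. Differences as small as the fitted ones of the pigment genes were not simulated, so that share does not apply to them. Library totals, other filters, a label number covariate and leaving out libraries were tried. The marker lists of melanocytes and Schwann cells were summed without 1 gene that is not reported here.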

Additional observations from a re-analysis of the deposited data

Results flagged for a closer look

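In 32 sets of 5 values (8 genes in 4 groups), 8 held a library far from the others by Dixon's gap. Chance flags about 1 in 20 groups of normally distributed values, or 1.6 here, but sets of mostly 0 counts are not of that kind. A set with a single library above 0 has a gap of 1 whatever its count, so no excess is read from the 8. The gap to the nearest library, as a share of the range, is given for each on the log2 scale with 1 count of the median library added. CPM and counts are printed beside it without that step. On the log2 scale a library at 0 is placed by the added count, so its gap depends on it. Tyr in DNFB 6 (36.6 CPM against 16.5 to 20.4, gap 0.735) was the high library that also led the other enzymes, and Tyr in acetone 1 (0 counts against 3 to 121, gap 0.7202) was a shallow one. In the pancreas the flags rest on 0 to 2 counts. Tyrp1 in caerulein 18, Mlana in PBS 16 and Slc45a2 in PBS 7 had 1 count where the others had 0 (gap 1 each), and Oca2 in PBS 15 had 2 (gap 1). Oca2 in caerulein 9 had 1 count in a shallow library (gap 0.7121), and Mitf in caerulein 18 had 0 against 1 to 6 (gap 0.7205).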

How the results depend on the processing

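Of 160 values of single pigment genes in epidermis under alternatives, 150 stayed within 1 SD of the spread between libraries, 10 moved further, and 141 were above 0. That spread is wide, with a log2 SD of 3.36 for Pmel among acetone libraries. Pmel at 0.06 without acetone 1, 2 and 3 counted as within it, so staying within it does not mean that a value was stable. The fits share libraries and the list was chosen on this comparison, so nothing is read from the 141. The median log2 fold change of the 8 genes, 1.20, was 2.91 in libraries numbered 1 to 10, and leaving out 1 library gave 0.90 (without DNFB 6) to 1.93 (without acetone 11). Calls over all genes moved more, and the cause was not tested. In the epidermis 3 genes were called, against 0 with library totals, 108 without a filter, 78 with DESeq2, 12 with the label number covariate, 1 without acetone 11 and 12, 5 without the 3 satellite-like genes, 1125 without acetone 1, 2 and 3 (an alternative chosen after seeing the data), and 0 to 34 leaving out 1 library. List genes called were 0, or 1 without acetone 1, 2 and 3, and 0 leaving out 1 library. In the pancreas 115 genes were called, against 572 with library totals, 1297 without a filter, 748 with DESeq2 and 14 to 280 leaving out 1 library. Between control tissues 185 were called, against 420, 1202 and 1270 under the same alternatives and 121 to 459 leaving out 1 library. Pigment genes past the exact test were 0 in the pancreas (0 to 1 leaving out 1 library) and 2 between control tissues (0 without acetone 11 to 3 without acetone 2), and the genes changed with the scaling: Mitf passed as well under library totals, and in place of Slc45a2 (exact p = 0.0873) without a filter and with DESeq2 size factors (exact p = 0.0317 and 0.0476). The core's share of promoters fell to 1.90% on 1 strand. No paired analysis was possible because no label number occurs in more than 1 group. Shallow libraries limit all values: 3 counts were 9.67 CPM in acetone 1.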
